A study of Mus musculus and Rattus norvegicus with 51 samples.

Results

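The genes described here are those of the tumour necrosis factor (TNF) superfamily: its ligands, their receptors and the TNF receptor-associated factors (TRAFs). Members were taken by symbol: every gene named Tnfsf or Tnfrsf with a number, Traf1 to Traf7, and Tnf, Lta, Ltb, Cd40 and Fas. This gave 43 genes of the 28587 listed in any of the 3 count tables, and they comprised 14 ligands, 22 receptors and 7 TRAFs. The study asked how redox forms of HMGB1, a nuclear protein that acts as a danger signal when released, act on liver fibrosis and its resolution. It contributed 51 RNA-seq libraries.

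In the first experiment the rat hepatic stellate cell line HSC-T6, an immortalised line with genotype WT, was cultured for 6 h with BSA as control protein or with [H], [O] or [SO3] HMGB1, which denote reduced, disulfide and sulfonated HMGB1, with 3 libraries a group. In the second, total liver came from male WT mice. They received CCl4, a hepatotoxin that damages hepatocytes, for 4 weeks together with BSA, [H] HMGB1 or [O] HMGB1, or they were sampled 1 week into regression with BSA, [SO3] HMGB1 or an antibody to HMGB1, with 3 libraries a group. These groups are called fibrosis and resolution below. In the third, male mice were either WT or Hmgb1ΔHepΔMye, which lack Hmgb1 in hepatocytes and myeloid cells and received an AAV8 vector carrying WT HMGB1 or Δ[O] HMGB1, a form that cannot become [O] HMGB1. Each of these 3 kinds of mice was given MO (mineral oil, the vehicle; 3 libraries) or CCl4 (4 libraries) for 4 weeks. No group of this experiment carried the deletion without an HMGB1 construct, so a knockout with WT HMGB1 differs from a WT liver by deletion and construct together, and the contributions of these cannot be told apart. HSC-T6 is a single established line, strain and age were not named in the sources used here, and nothing says whether replicates came from separate cultures or from single animals. P-values therefore measure only the spread between these libraries, which may be technical.

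TNF superfamily ligands are mostly trimeric, membrane-anchored proteins of immune cells, and some are shed. Their receptors either carry a death domain, which recruits adaptors and caspases (Fas, Tnfrsf1a, Tnfrsf10b, Tnfrsf21, Tnfrsf25), or bind TRAFs, which scaffold ubiquitin chains and activate NF-κB and MAP kinases (Tnfrsf1b, Cd40, Tnfrsf9, Tnfrsf12a). In liver the family is known for hepatocyte death through Fas and TRAIL receptors, for inflammation through TNF, and for progenitor and stellate cell growth through TWEAK (Tnfsf12) and its receptor Fn14 (Tnfrsf12a). Tnfrsf11b (osteoprotegerin) is a secreted decoy, and mouse Tnfrsf22 and Tnfrsf23 are decoys for the ligand TRAIL.

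Several members are known targets of NF-κB. Shown are 3 mouse promoters whose 250 bases before an annotated transcription start hold the NF-κB consensus decamer. They belong to a receptor, an adaptor and a ligand that recur below. Sequences are from RefSeq on GRCm38.p6. Each is written 5′ to 3′ on the gene's strand and ends before the transcription start, and capitals mark the match. The Tnfrsf9 stretch is chr4:150927911-150927998 on the plus strand, the Traf3 stretch is chr12:111166315-111166369 on the plus strand and the Ltb stretch is chr17:35194375-35194474 on the plus strand.
Tnfrsf9: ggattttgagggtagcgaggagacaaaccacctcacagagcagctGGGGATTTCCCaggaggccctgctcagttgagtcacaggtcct
Traf3: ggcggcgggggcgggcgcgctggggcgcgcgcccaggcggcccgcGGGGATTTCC
Ltb: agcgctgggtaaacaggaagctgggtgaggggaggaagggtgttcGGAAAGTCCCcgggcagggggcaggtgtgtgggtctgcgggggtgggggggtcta

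In Tnfrsf9 the capitals span 11 bases because 2 matches on the plus strand, which begin 43 and 42 bases before the start, overlap, and the second also matches on the minus strand. The Traf3 match lies within the last 10 bases before the start used, and both lie inside the gene's listed span (chr12:111166321-111267155). The Ltb match, on the opposite strand to the gene, begins 87 bases before its start. Tnfrsf9 had 2 windows. The stretch shown precedes a start inside the gene's listed span (chr4:150920155-150946104), and the window at the listed gene start (chr4:150919905-150920204) held no match. Both strands were searched in 39 promoter windows that matched 35 of the 43 members. A match was present in 4 windows (10.3%), those of Tnfrsf8, Tnfrsf9, Traf3 and Ltb, against 1281 of all 32851 RefSeq promoters of the same length (3.90%). A match describes letters and not a bound site. The stellate cell data below are from rat cells, whose promoters were not read here.

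Depth ranged from 11752661 to 16981255 gene counts per library in the cells, from 8355714 to 16327132 in livers of the second experiment and from 22598631 to 39323123 in those of the third. Levels are counts-per-million (CPM) values after scaling by trimmed mean of M-values. A gene was tested where its counts passed edgeR's filter on low counts, and was called at an adjusted p under 0.05 (edgeR quasi-likelihood test, Benjamini-Hochberg adjustment over all genes tested). In the cells 18 of the 37 members listed were tested, and 33 of 43 in each of the liver tables. The stellate list summed to 33400 to 48600 CPM in the cells, almost all of it Col1a1 and Vim, whereas Lrat, a defining gene of quiescent stellate cells, had no count and Reln at most 1 count a group. Markers of T cells, B cells, dendritic cells and neutrophils summed to at most 0.342 CPM there. The submitters' notes name the mouse build mm10 for these rat cells too. Whether rat reads were lost from low or 0 counts in the cells was not tested. Hmgb1 itself averaged 74.9 ± 2.28 CPM (SD, n = 3) in WT livers under MO, 69.4 ± 5.42 (n = 3) in knockout livers with WT HMGB1 and 173 ± 42.2 (n = 3) with Δ[O] HMGB1. With CCl4 the same groups averaged 74.8 ± 22.1, 58.7 ± 13.4 and 74.5 ± 14.8 CPM (n = 4 each). Hmgb1 thus fell under CCl4 with Δ[O] HMGB1 (log2 fold change −1.21, edgeR adjusted p = 0.000336) and was not called between the knockouts under CCl4 (0.34, edgeR adjusted p = 0.428). Construct transcripts can be counted there, so this level does not check the deletion.

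Some libraries stood apart before any comparison. Among the fibrosis livers, the libraries numbered 2 held the highest level of their group in all 3 groups for 15 of the 33 tested members (45.5%), against 15% of all tested genes. The 15 included Tnf, Tnfrsf1b, Tnfrsf9, Tnfrsf12a, Cd40 and Traf1. Number 1 did so for 1 member and number 3 for 2. The neutrophil marker sum was also highest in number 2 of each of these groups, at 159, 31.2 and 160 CPM with BSA, [H] and [O] HMGB1. So was the endothelial sum, at 400, 238 and 336 CPM in the same order. The part of either in the members' levels was not tested. Among the AAV8 livers, library 3 of the MO-treated knockout with WT HMGB1 held 4.41 CPM of Tnfrsf22 and 4.36 CPM of Tnfrsf14, against 1.34 to 1.43 and 1.17 to 1.27 CPM in libraries 1 and 2. Member calls that were lost or gained without 1 of these libraries are given with and without it.

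In the stellate cells, [O] HMGB1 raised a set of receptors and adaptors. Of the 18 tested members 11 rose and none fell, comprising 6 of 9 receptors, 4 of 6 TRAFs and 1 of 3 ligands. Across all 10140 tested genes 23.7% were called higher and 20.2% lower. The members' median log2 fold change was 0.33, and that of all genes was −0.01.

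Tnfrsf9, the T-cell costimulatory receptor 4-1BB, showed the largest change of the family. It measured 0.681, 0.142 and 0.342 CPM in the BSA libraries, 0.382, 0.124 and 0.062 CPM with [H] HMGB1, and 23.3, 21.7 and 21.4 CPM with [O] HMGB1. The [O] libraries thus stood far above both other groups, from 1054 counts in sum against 16 with BSA. The log2 fold change over BSA was 5.78 ± 0.216 (SE; edgeR adjusted p = 3.79e-17). Here and below, the SE of a log2 fold change is its absolute value divided by the square root of edgeR's F statistic. It can understate the error of a large change from few counts, such as this one.

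Fas, the death receptor for Fas ligand, measured 31.2, 29.0 and 30.3 CPM with BSA and 165, 174 and 178 CPM with [O] HMGB1. The groups did not overlap, and the log2 fold change was 2.51 ± 0.0509 (edgeR adjusted p = 5.39e-23). Tnfsf15, the ligand TL1A, measured 1.97, 2.20 and 1.62 CPM with BSA and 8.81, 9.73 and 7.98 CPM with [O] HMGB1, a log2 fold change of 2.18 ± 0.174 (edgeR adjusted p = 1.24e-10). Of the 3 tested ligands it was the one called.

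Both TNF receptors rose. Tnfrsf1b, which binds TRAF2 directly, measured 19.3, 19.1 and 14.7 CPM with BSA and 52.8, 46.9 and 48.2 CPM with [O] HMGB1, a log2 fold change of 1.47 ± 0.079. Tnfrsf1a, the death-domain TNF receptor of most cells, measured 206, 211 and 199 CPM and then 292, 276 and 291 CPM, a log2 fold change of 0.48 ± 0.038. Tnf itself was not tested in these cells: its counts over each group of 3 libraries were 0 with BSA, 2 with [H], 4 with [O] and 0 with [SO3] HMGB1. A count of 0 over the BSA libraries allows a level of up to 0.0741 CPM. This covers counting error only, and not any loss of rat reads on the build named above.

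Among the adaptors, Traf2, the ubiquitin-linked scaffold of TNF receptor complexes, measured 26.1, 27.3 and 22.7 CPM with BSA and 51.1, 51.7 and 54.2 CPM with [O] HMGB1 (log2 fold change 1.04 ± 0.0616). Traf3, which restrains the non-canonical NF-κB kinase, measured 80.4, 76.1 and 69.2 CPM and then 128 CPM in each of the 3 libraries (0.76 ± 0.0496). The [O] libraries lay above every BSA library for both adaptors. Smaller rises were called for Tnfrsf12a (log2 fold change 0.38), Tnfrsf10b (0.38), Traf6 (0.21) and Traf7 (0.12). Tnfrsf10b (edgeR adjusted p = 0.0119), Traf6 (0.0372) and Traf7 (0.0212) each lost the call without at least 1 library, [O] library 1 among them (adjusted p up to 0.138).

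**Figure D1:**
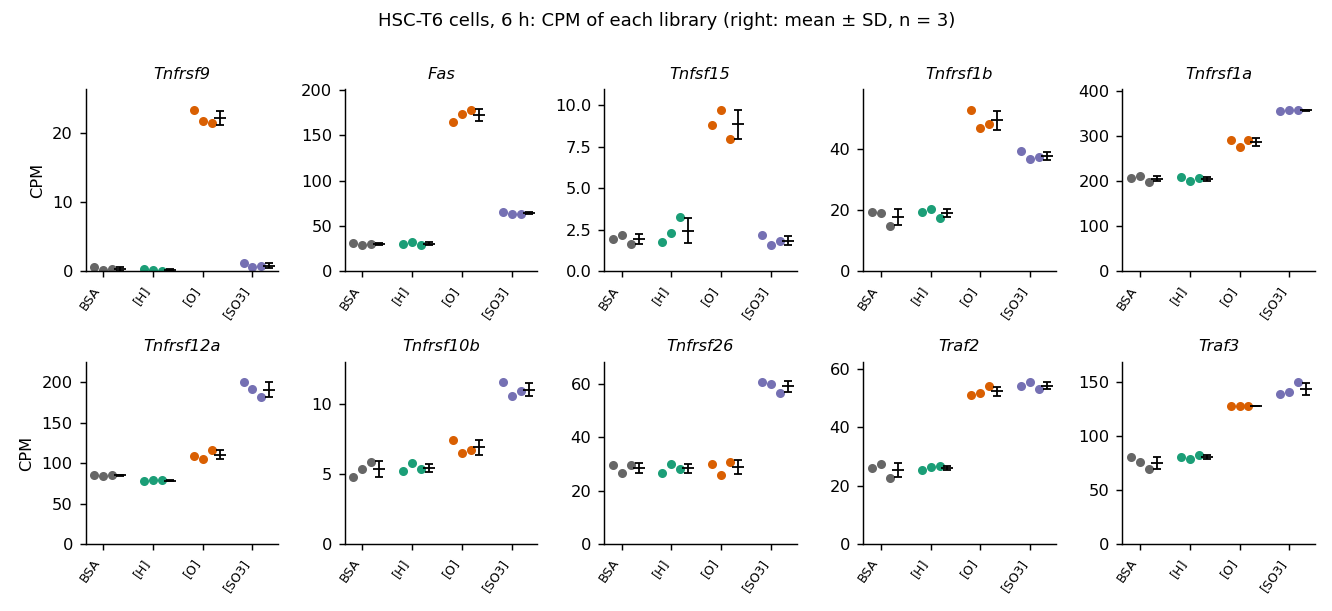
CPM of members by library in the rat stellate cells, with 1 point per library and the mean ± SD at its right for the BSA, [H], [O] and [SO3] groups (n = 3 each). Tnfrsf9, Fas and Tnfsf15 were highest with [O] HMGB1, and Tnfrsf12a, Tnfrsf26 and Tnfrsf10b with [SO3] HMGB1.

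[H] HMGB1 gave no call among the 18 tested members, with 1 member at an unadjusted p under 0.05, and 0.799% of all genes were called in either direction. Fas measured 29.9, 32.1 and 29.0 CPM with [H] HMGB1 and overlapped with the BSA libraries. Set directly against [H], [O] HMGB1 gave 10 members higher and 1 lower, with 21.9% of all genes higher and 19.0% lower. The 2 comparisons share the [O] libraries. Tnfrsf9 differed by a log2 fold change of 6.82 (edgeR adjusted p = 5.78e-18), Fas by 2.50 and Tnfsf15 by 1.84. Traf1 was lower with [O] than with [H] HMGB1 by −0.26 (edgeR adjusted p = 0.0489), a call kept in 3 of 11 fits. Of the 10 higher members, Traf7 kept its call in 2 of 11 fits (adjusted p up to 0.237) and Tnfrsf10b in 7 of 11 (up to 0.0975).

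[SO3] HMGB1 also raised 11 of the 18 tested members, and 1 fell; 31.1% of all tested genes were called higher and 32.2% lower. The members' median log2 fold change was 0.84. By role 8 of 9 receptors and 3 of 6 TRAFs rose, and the ligand Tnfsf12 fell.

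Tnfrsf12a, the TWEAK receptor, measured 85.0, 84.5 and 85.1 CPM with BSA and 200, 192 and 181 CPM with [SO3] HMGB1, with no overlap (log2 fold change 1.17 ± 0.0467; edgeR adjusted p = 1.42e-16). Its ligand Tnfsf12 measured 41.9, 43.5 and 40.9 CPM with BSA and 35.2, 39.8 and 36.7 CPM with [SO3] HMGB1, a fall of −0.18 on the log2 scale (edgeR adjusted p = 0.0136) that was not called without BSA library 2 or [SO3] library 1 (adjusted p up to 0.0711). So receptor and ligand of this pair moved in opposite directions.

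Tnfrsf10b, the mouse and rat TRAIL death receptor, measured 4.76, 5.40 and 5.90 CPM with BSA and 11.6, 10.6 and 10.9 CPM with [SO3] HMGB1, a log2 fold change of 1.05 ± 0.108. Tnfrsf26, a receptor related to the TRAIL decoys, measured 29.6, 26.4 and 29.5 CPM and then 60.5, 59.9 and 56.5 CPM, a log2 fold change of 1.05 ± 0.0657. Both groups of [SO3] libraries stood above all BSA, [H] and [O] libraries. Tnfrsf25, the death-domain receptor for TL1A, rose by 0.88, Tnfrsf1a by 0.80, Tnfrsf1b by 1.08, Fas by 1.09, Traf2 by 1.09 and Traf3 by 0.93.

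The [SO3] calls of Tnfrsf9 and Traf6 were weak. Tnfrsf9 measured 1.17, 0.628 and 0.697 CPM, overlapping with BSA, and its log2 fold change of 1.05 (edgeR adjusted p = 0.0412) was lost in 4 of 11 fits, at an adjusted p of up to 0.233. Traf6 overlapped too (log2 fold change 0.19, edgeR adjusted p = 0.043) and was lost in 6 of 11 fits, at up to 0.409. The fits that lost them included those without BSA library 2 or 3, and for Tnfrsf9 also [SO3] library 1 and for Traf6 [SO3] library 3. In the [SO3] libraries the proliferation marker sum was 398 to 429 CPM against 789 to 854 CPM with BSA, and the stellate sum was 33400 to 35700 against 44500 to 47200 CPM. The macrophage sum was 2.78 to 3.54 against 0.855 to 1.77 CPM, and the cholangiocyte sum 11.1 to 12.2 against 25.2 to 32.7 CPM. The part of these differences in the receptor levels was not tested.

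The [SO3] and [O] forms were compared directly, and this gave 8 members higher and 5 lower with [SO3] HMGB1, with 29.1% of all genes higher and 30.0% lower. Higher with [SO3] HMGB1 were Tnfrsf26 (log2 difference 1.03 ± 0.0638), Tnfrsf12a (0.79 ± 0.0452), Tnfrsf4 (0.79), Tnfrsf10b (0.67), Tnfrsf25 (0.59), Traf1 (0.35), Tnfrsf1a (0.32) and Traf3 (0.16). Tnfrsf4, the costimulatory receptor OX40, was the weakest of these (edgeR adjusted p = 0.0269; 0.121 at most, lost without [O] library 2 or [SO3] library 1). Lower were Tnfrsf9 (−4.73 ± 0.175), Tnfsf15 (−2.25 ± 0.165), Fas (−1.43 ± 0.0449), Tnfrsf1b (−0.39) and Traf7 (−0.13). The [O] form thus gave more Tnfrsf9, Fas and Tnfsf15 RNA, and the [SO3] form more Tnfrsf12a, Tnfrsf26 and Tnfrsf10b RNA. Traf2 was not called between the forms, at 51.1 to 54.2 CPM with [O] and 53.3 to 55.5 CPM with [SO3] HMGB1.

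**Figure D2:**
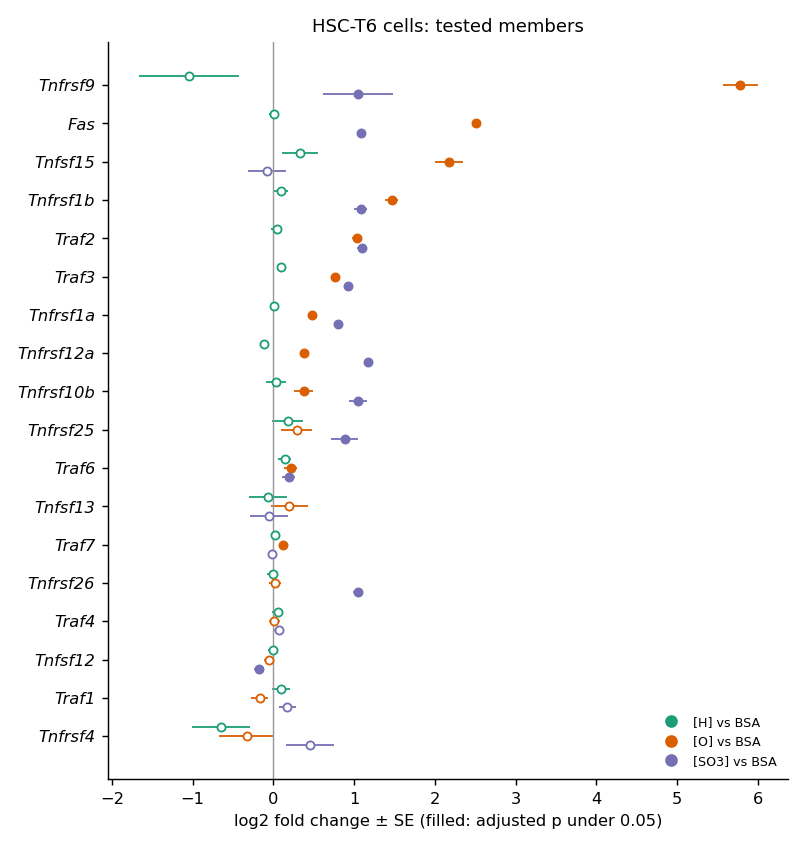
Log2 fold change over BSA of the 18 tested members in the rat stellate cells for [H], [O] and [SO3] HMGB1 (n = 3 libraries a group). Bars are 1 standard error, taken as the absolute log2 fold change over the square root of edgeR's F statistic. Tnfrsf9 reached 5.78 with [O] HMGB1, Tnfrsf12a was higher with [SO3] HMGB1 at 1.17, and no [H] value was called.

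The remaining 19 members listed for the cells were not tested. Of these 7 had no count in any library (Cd40, Tnfrsf11a, Tnfrsf14, Tnfrsf19, Tnfsf4, Tnfsf11 and Tnfsf14). Low ligands included Ltb, with 0, 1, 9 and 0 counts over the BSA, [H], [O] and [SO3] groups, and Tnfsf10 (TRAIL), with 1, 2, 13 and 3. Tnfsf9, the ligand of Tnfrsf9, held 0.257 to 0.628 CPM in every group, and its mean was highest with [H] HMGB1 at 0.521 CPM.

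Genes downstream of the receptors were taken from lists of intracellular partners. With [O] HMGB1, where 23.7% of all genes rose and 20.2% fell, 10 of 17 tested adaptors, kinases and death effectors rose and 1 fell, among them Adam17, the sheddase of TNF (log2 fold change 1.31), and the kinase Ikbke (1.07), while Tradd, the adaptor of Tnfrsf1a, fell by 0.28. Of 12 tested ubiquitin enzymes and feedback inhibitors 10 rose, led by the RNase Zc3h12a (4.71), the ubiquitin ligase Birc3 (3.56) and the NF-κB inhibitor Nfkbia (3.43). With [SO3] HMGB1, where 31.1% of all genes rose and 32.2% fell, 11 of the 17 rose and 4 fell, and 8 of the 12 rose and 3 fell. Zc3h12a (2.30), Nfkbia (2.22) and Birc3 (1.10) rose there too, whereas Ikbke fell by 0.82 and the stress kinase Map3k5 by 0.73. None of either list was called with [H] HMGB1. Of family genes outside the naming rule, Ngfr rose by 1.10 with [O] HMGB1 and Relt by 1.09 with [SO3] HMGB1.

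In the fibrotic livers, treatment with [H] or [O] HMGB1 gave no call among the 33 tested members and none among all 13487 genes (0% for [H] against BSA, for [O] against BSA and for [O] against [H]). Whole liver was sequenced, so fewer cells of a type and less RNA per cell cannot be told apart here or in any liver result below. At an unadjusted p under 0.05 the members numbered 4, 2 and 5, and the genes 1448, 727 and 1413. DESeq2 called 3, 5 and 278 genes, and 0, 0 and 1 members, the member being Tnfrsf11a between [O] and [H] (log2 difference 1.44, DESeq2 adjusted p = 0.0499).

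By role, the members at an unadjusted p under 0.05 were 4 receptors for [H] against BSA. They were 1 receptor and 1 TRAF for [O] against BSA, and 3 receptors, 1 ligand and 1 TRAF for [O] against [H]. Among the members nearest to a call, the immune receptors Cd40, Tnfrsf13b and Tnfrsf11a had their lowest mean in the [H] livers. Cd40, the costimulatory receptor of antigen-presenting cells, measured 1.20, 2.72 and 1.52 CPM with BSA, 0.686, 0.857 and 0.636 CPM with [H], and 1.57, 4.17 and 1.43 CPM with [O] HMGB1. The [H] libraries lay below all libraries of both other groups. The log2 difference of [O] from [H] was 1.71 ± 0.519 (edgeR adjusted p = 0.181) and that of [H] from BSA −1.29 ± 0.526 (0.426). Tnfrsf13b, the B-cell receptor TACI, measured 0.931, 1.21 and 1.74 CPM with BSA and 0.601, 0.462 and 0.382 CPM with [H], again without overlap (−1.42, edgeR adjusted p = 0.414). Tnfrsf11a, the receptor RANK, measured 3.19, 10.6 and 5.73 CPM with BSA, 2.75, 3.76 and 1.85 CPM with [H], and 5.69, 10.02 and 6.87 CPM with [O] HMGB1. Its [O] libraries all lay above its [H] libraries (1.43, edgeR adjusted p = 0.157). The macrophage marker sum was 269 to 377 CPM in the [H] livers against 390 to 797 CPM with BSA and 573 to 733 CPM with [O] HMGB1, the stellate sum 177 to 372 against 442 to 817 and 775 to 901 CPM, and the neutrophil sum 18.7 to 31.2 against 46.7 to 159 and 24.2 to 160 CPM. The part of these in the receptor levels was not tested.

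During resolution, neither [SO3] HMGB1 nor the antibody gave a call among members or genes (0% in both comparisons with BSA), with 1 member each at an unadjusted p under 0.05 and 812 and 279 genes. These members were Traf3 with [SO3] HMGB1, at 16.9, 17.5 and 19.0 CPM against 25.7, 30.8 and 24.3 CPM with BSA (log2 difference −0.60, edgeR adjusted p = 0.762), and the costimulatory receptor Tnfrsf4 with the antibody, at 0.679, 0.752 and 0.695 CPM against 0.205, 0.155 and 0.376 CPM (1.57, edgeR adjusted p = 1). The groups did not overlap for either gene. DESeq2 called 80 and 7 genes and no member.

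Between stages, BSA-treated livers in resolution held less RNA of several receptors than BSA-treated fibrotic livers. Of 33 tested members 6 fell and none rose, while 6.60% of all genes fell and 2.40% rose, and the members' median log2 difference was −0.71. The 6 were 5 receptors and the ligand Tnfsf9. The 2 groups differ in time of sampling as well as in stage, and these cannot be told apart.

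Tnfrsf12a measured 58.2, 416 and 29.7 CPM in fibrosis and 6.43, 7.37 and 5.77 CPM in resolution, a log2 difference of −4.68 ± 0.931 (edgeR adjusted p = 0.0165). Fibrosis library 2 lay far above libraries 1 and 3, and all 3 lay above the resolution libraries. Without that library the difference was −2.74 (edgeR adjusted p = 0.0287). Tnfrsf10b measured 3.79, 7.05 and 6.68 CPM and then 0.958, 1.09 and 0.627 CPM (−2.67 ± 0.563, adjusted p = 0.0187; −2.51 and 0.028 without fibrosis library 2). Tnfrsf13b measured 0.931, 1.21 and 1.74 CPM and then 0.479, 0.233 and 0.251 CPM (−1.94, 0.027; −1.98 and 0.0428 without it). These calls held without the number 2 library.

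The other 3 did not hold without it. Tnfrsf23, a TRAIL decoy, measured 10.6, 47.3 and 5.59 CPM and then 1.57, 1.47 and 2.26 CPM (−3.59, edgeR adjusted p = 0.0366; 0.161 without fibrosis library 2). Tnfsf9 measured 0.332, 2.11 and 1.09 CPM and then 0.0685, 0.155 and 0 CPM (edgeR adjusted p = 0.046; 0.145 without it). With 3 counts over the resolution group against 41, its ratio of resolution to fibrosis was 0.0817 (95% Clopper-Pearson interval 0.0162 to 0.256, counting error only). Tnfrsf11b, osteoprotegerin, measured 11.0, 19.6 and 12.4 CPM and then 6.43, 5.12 and 5.90 CPM (−1.30, edgeR adjusted p = 0.0281; 0.0873 without it). None of the 6 calls held when any 1 of the 3 resolution libraries was left out (adjusted p from 0.0764 to 0.141), and the differences then ranged from −4.74 to −4.57 for Tnfrsf12a. Without fibrosis library 3, Tnfrsf13b (adjusted p = 0.0561) and Tnfsf9 (0.0567) were also lost. DESeq2 called 11 members, and a fit of the 2 groups alone called 1.

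**Figure D3:**
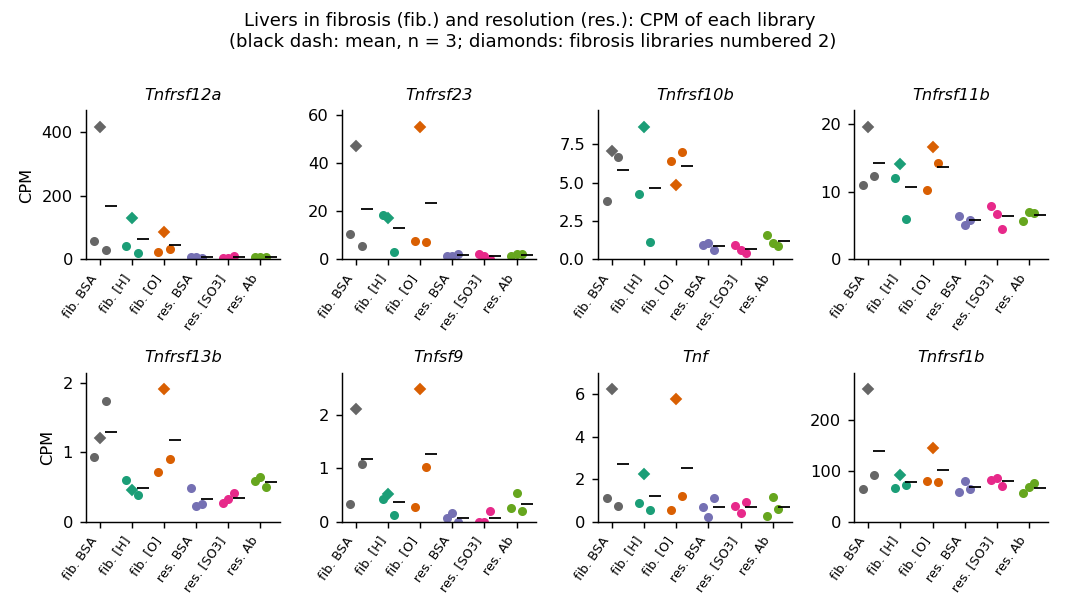
CPM by library of the 6 members called between stages, and of Tnf and Tnfrsf1b, in the 6 groups of the fibrosis and resolution experiment (n = 3 each; dash, group mean; diamonds, fibrosis libraries numbered 2). Tnfrsf12a lay at 29.7 to 416 CPM in fibrosis with BSA and at 5.77 to 7.37 CPM in resolution with BSA, and the number 2 library reached 416 CPM.

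The number 2 libraries carried the spread of several other members. Tnf measured 1.13, 6.24 and 0.726 CPM in the BSA livers of the fibrosis stage, 0.858, 2.24 and 0.573 CPM with [H] and 0.569, 5.79 and 1.23 CPM with [O] HMGB1. Tnfrsf9 measured 0.266, 4.43 and 0.290 CPM, 0.858, 3.30 and 0.255 CPM, and 0.427, 3.07 and 0.843 CPM in the same order. For both genes the number 2 library was the highest of each group, and neither gene was called by edgeR with all libraries in any comparison of this table. Tnfrsf9 was called lower in resolution than in fibrosis with BSA by DESeq2 (−3.59, DESeq2 adjusted p = 0.0373), with the replicate number as a block (−2.91, edgeR adjusted p = 0.035) and without fibrosis BSA library 1 (−3.94, edgeR adjusted p = 0.048). Tnfrsf1b reached 262 CPM in that BSA library against 64.3 and 92.9 CPM in the others.

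Marker sums moved between the stages too. The dendritic sum was 12.2 to 20.7 CPM in fibrosis with BSA and 3.76 to 7.32 CPM in resolution, the stellate sum 442 to 817 against 207 to 278 CPM, the cholangiocyte sum 171 to 651 against 79.7 to 107 CPM and the neutrophil sum 46.7 to 159 against 25.2 to 38.3 CPM. The macrophage sums, 390 to 797 and 454 to 479 CPM, overlapped. Their part in the receptor levels was not tested. Of family genes outside the naming rule, Eda2r, the receptor of ectodysplasin-A2, fell by 2.73 and Relt by 2.31 on the log2 scale between the stages.

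The 10 members not tested in this table were Lta, Tnfrsf8, Tnfrsf13c, Tnfrsf17, Tnfrsf18, Tnfsf4, Tnfsf8, Tnfsf11, Tnfsf15 and Tnfsf18. Their highest level in any library was 0.685 CPM, of Tnfrsf18. Most are receptors and ligands of lymphocytes.

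In the AAV8 experiment, levels per kb of exon in MO-treated WT livers were highest for Tnfrsf1a (29.8 ± 1.85 CPM per kb, SD, n = 3), Tnfrsf1b (15.5 ± 2.18), Traf4 (12.6 ± 1.00) and Fas (11.7 ± 1.20). Traf4 and Fas lay within their spread of each other. Tnfrsf12a stood at 4.17 ± 0.325 CPM per kb and Tnf at 0.122 ± 0.0605. Under CCl4, Tnfrsf1a stood at 33.5 ± 1.73 and Tnfrsf12a at 19.9 ± 8.09 CPM per kb (n = 4 each).

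CCl4 raised 11 of 33 tested members in WT livers and lowered 1, Fas, while 22.8% of all 14129 genes rose and 23.5% fell. The 11 were 7 of 19 receptors, 3 of 7 TRAFs and 1 of 7 ligands, and the median log2 fold change of the members was 0.56. Receptors of TRAIL led the rise. Tnfrsf10b measured 0.165, 0.164 and 0.508 CPM with MO and 3.06, 2.60, 4.23 and 2.65 CPM with CCl4, a log2 fold change of 3.47 ± 0.443 (edgeR adjusted p = 4.69e-06). Tnfrsf23 measured 0.123, 0.382 and 0.554 CPM and then 3.63, 11.2, 6.84 and 3.32 CPM (4.17 ± 0.576, edgeR adjusted p = 1.25e-05). Tnfrsf22 measured 0.123, 0.273 and 0.416 CPM and then 1.68, 5.73, 2.64 and 0.784 CPM (3.34 ± 0.661, edgeR adjusted p = 0.000436). For all 3 receptors every CCl4 library lay above every MO library.

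Tnfrsf22 (chr7:143634808-143649675) and Tnfrsf23 (chr7:143665807-143686436) neighbour each other on mm10 and share sequence: 719 stretches of 50 bases, 17.3% of those of Tnfrsf22 transcripts and 18% of those of Tnfrsf23, occurred in both. Reads there cannot be split with certainty, so the levels of each are uncertain. No such stretch was shared with Tnfrsf26 (chr7:143607685-143627845), the third gene of this cluster, but exons of Tnfrsf23 and Tnfrsf26 overlap an opposite-strand transcript, E230032D23Rik. Whether counting used strand is not given in the sources used here.

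Tnfrsf12a measured 7.32, 8.41 and 8.41 CPM with MO and 31.4, 61.8, 31.3 and 29.1 CPM with CCl4 in WT livers (2.26 ± 0.351, edgeR adjusted p = 4.67e-05). Library 2 was the highest of the CCl4 livers and stood apart from the other 3. Tnfrsf13b (log2 fold change 2.71), Traf1 (2.15), the decoy Tnfrsf11b (1.57), the receptor Tnfrsf11a, whose ligand that decoy binds (1.36), Traf3 (1.02), the lymphoid ligand Ltb (0.85) and Traf5 (0.59) rose as well. The calls of Ltb (edgeR adjusted p = 0.02) and Traf5 (0.0181) were lost without single libraries, at up to 0.0936: Ltb without MO library 1 or 2 or CCl4 library 2, Traf5 without MO library 2 or CCl4 library 1. Tnf and Tnfrsf9, not called with all libraries, were called without CCl4 library 3 (Tnf 1.27, edgeR adjusted p = 0.0496; Tnfrsf9 2.37, 0.0458) or CCl4 library 4 (Tnf 1.40, 0.0126; Tnfrsf9 2.48, 0.0257).

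Fas went the other way, at 21.5, 24.3 and 26.4 CPM with MO and 13.6, 9.56, 12.8 and 11.7 CPM with CCl4, a log2 fold change of −1.02 ± 0.161 (edgeR adjusted p = 4.6e-05). It fell in all 3 kinds of mice, by 0.99 in knockout livers with WT HMGB1 and by 0.61 with Δ[O] HMGB1. In the last of these MO library 1, at 16.6 CPM, lay below the highest CCl4 library, at 16.9 CPM, and the call was lost without MO library 3 (edgeR adjusted p = 0.068). Hepatocyte markers summed to 149000 to 170000 CPM in WT livers with MO and 86000 to 123000 CPM with CCl4. The dendritic sum was 0.785 to 1.91 and then 8.55 to 11.4 CPM, the stellate sum 62.5 to 96.0 and then 248 to 457 CPM, the cholangiocyte sum 65.9 to 90.9 and then 115 to 243 CPM, and the macrophage sum 343 to 380 and then 187 to 276 CPM. The part of these shifts in the members' levels was not tested.

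In knockout livers with WT HMGB1, CCl4 raised 13 tested members, 10 receptors, 2 ligands and Traf3, and lowered Fas, with 23.3% of all genes higher and 24.0% lower. The median log2 fold change of the members was 0.32. Tnf measured 0.308, 0.251 and 0.282 CPM with MO and 0.699, 0.631, 0.822 and 0.781 CPM with CCl4, with no overlap (1.37 ± 0.438, edgeR adjusted p = 0.0148; 0.0528 without MO library 2). Cd40 measured 0.732, 0.585 and 1.13 CPM and then 1.46, 2.38, 2.41 and 1.25 CPM (1.18, edgeR adjusted p = 0.0251), and Tnfrsf21, a death-domain receptor, 7.63, 7.78 and 13.8 CPM and then 16.9, 22.0, 19.4 and 18.5 CPM (0.97, edgeR adjusted p = 0.00113). Every CCl4 library exceeded every MO library for both, though MO library 3 was the highest of its group. Tnfrsf1b measured 25.9, 26.3 and 35.1 CPM and then 45.8, 52.5, 44.4 and 43.9 CPM (0.68, edgeR adjusted p = 0.00278).

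The remaining rises in these livers were of Tnfsf13, the plasma cell ligand APRIL (log2 fold change 1.73, edgeR adjusted p = 0.0285), Tnfrsf11b (1.54), Tnfrsf13b (1.38), Tnfrsf10b (1.35), Tnfrsf12a (1.35), Tnfrsf11a (1.23), Tnfrsf23 (1.15, edgeR adjusted p = 0.037), Tnfrsf26 (1.12) and Traf3 (0.53). The calls of Tnfsf13, Traf3, Cd40 and Tnfrsf23 were each lost in 3 to 5 of 12 fits, at an adjusted p of up to 0.15. MO library 2 was among those whose absence lost each of the 4. Without MO library 3, which stood apart above, Tnfsf13 was at 1.51 (edgeR adjusted p = 0.0998). The exons of Tnfsf13 overlap the same-strand fusion transcript Tnfsfm13, which also overlaps Tnfsf12, so counts of these may be shared. Without MO library 3, Tnfrsf14 was called as well (1.55, edgeR adjusted p = 0.000353). In these livers the stellate sum was 85.4 to 125 CPM with MO and 644 to 956 CPM with CCl4. The proliferation sum was 17.1 to 18.4 and then 191 to 307 CPM, and the macrophage sum 236 to 379 and then 473 to 539 CPM. The neutrophil sum was 48.7 to 71.0 and then 17.5 to 22.4 CPM. The part of these shifts in the members' levels was not tested.

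In knockout livers with Δ[O] HMGB1, CCl4 raised 4 members and lowered Fas, with 12.9% of all genes higher and 11.4% lower, and the members' median was 0.11. The 4 were Tnfrsf13b (2.01), Tnfsf13 (1.78, overlapping groups, edgeR adjusted p = 0.0415 and up to 0.173 in the 6 of 12 fits that lost it), Tnfrsf10b (1.71) and Tnfrsf12a (1.38). Tnfrsf10b measured 1.81, 1.21 and 1.27 CPM with MO and 3.88, 5.95, 6.84 and 1.97 CPM with CCl4 (edgeR adjusted p = 0.00135). Tnfrsf12a measured 6.59, 7.75 and 6.92 CPM and then 16.5, 20.9, 27.2 and 9.06 CPM (edgeR adjusted p = 0.00632). In both genes the fourth CCl4 library, replicate 5 in the labels, was nearest to the MO level. This library also had the lowest marker sums of its group for stellate cells (277 CPM; group range with it 277 to 586), macrophages (214; 214 to 461), cholangiocytes (99.5; 99.5 to 288) and proliferation (76.1; 76.1 to 322), and the highest for hepatocytes (118000). With MO these sums were 90.4 to 127, 229 to 346, 40.8 to 83.7 and 10.2 to 20.2 CPM, and 123000 to 131000 CPM for hepatocytes, and their part was not tested. Without replicate 5, Tnfrsf23 (1.41, edgeR adjusted p = 0.0241), Tnfrsf11b (0.79, 0.0478) and Tnfrsf1a (−0.31, 0.0347) were called as well. Tnf was not called, at 0.354, 0.281 and 0.525 CPM with MO and 0.243, 0.322, 0.264 and 0.276 CPM with CCl4.

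**Figure D4:**
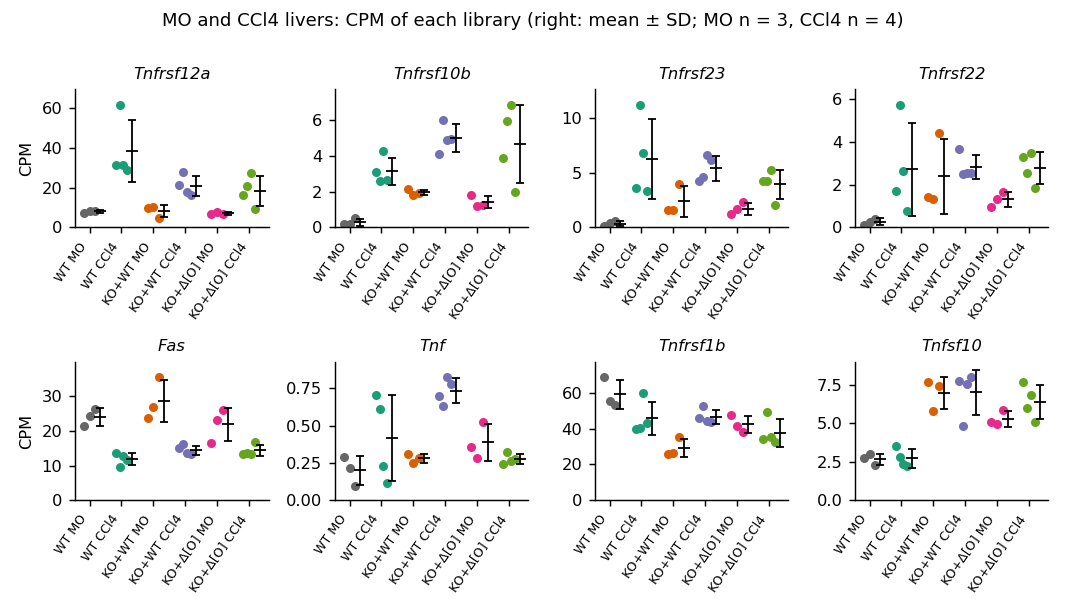
CPM by library of 8 members in the 6 groups of the AAV8 experiment, with the mean ± SD at the right of each group (MO n = 3, CCl4 n = 4). Tnfrsf10b in WT livers lay at 0.164 to 0.508 CPM with MO and 2.60 to 4.23 CPM with CCl4, and Fas was lower with CCl4 in WT livers.

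Under CCl4, livers with Δ[O] HMGB1 were compared with livers with WT HMGB1 on the same deletion, which bears on the [O] form of HMGB1. The Hmgb1 RNA levels given above were also higher with Δ[O] HMGB1 under MO, though not called different under CCl4. Form and amount of HMGB1 thus cannot be told apart, above all in the difference of responses. No tested member was called, whereas 2.31% of all genes were, 16 higher and 310 lower. DESeq2 called 2 members. At an unadjusted p under 0.05 there were 2130 of 14129 genes and 6 of the 33 tested members. All 6 were lower with Δ[O] HMGB1: Tnf (−1.39 ± 0.391, edgeR adjusted p = 0.0676), Tnfrsf21 (−0.68 ± 0.195, 0.0755), Tnfrsf11a (−0.86, 0.125), Cd40 (−1.13, 0.129), Tnfrsf13b (−0.74, 0.237) and Tnfrsf11b (−0.62, 0.321). The Tnf levels given above, 0.243 to 0.322 CPM with Δ[O] and 0.631 to 0.822 CPM with WT HMGB1, did not overlap.

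The calls of this comparison depended on the fit. Same-numbered CCl4 libraries deviated together, and with the replicate number as a block Tnfrsf21 was called (−0.76, edgeR adjusted p = 0.0275). DESeq2 called Tnf (−1.39, DESeq2 adjusted p = 0.0477) and Tnfrsf21 (−0.66, DESeq2 adjusted p = 0.0432). Without replicate 2 of the Δ[O] group, Tnfrsf21 (−0.86, edgeR adjusted p = 0.0161) and Tnfrsf11a (−1.10, 0.0445) were called. The difference between the CCl4 responses of the 2 knockouts gave no member and no gene (0%), with 3 members and 2098 genes at an unadjusted p under 0.05, and DESeq2 called 85 genes and no member. For Tnf the difference of responses was −1.86 ± 0.629 (edgeR adjusted p = 0.218). Without MO library 3 of the WT HMGB1 group, which stood apart above, this comparison called 1119 genes and 3 members: Tnfrsf14 (−1.57, edgeR adjusted p = 0.0209), Tnfrsf1b (−0.998, 0.0218) and Tnfrsf21 (−0.96, 0.041). The macrophage sum was 214 to 461 CPM in CCl4 livers with Δ[O] and 473 to 539 CPM with WT HMGB1, and the stellate sum 277 to 586 against 644 to 956 CPM. Their part was not tested.

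Under CCl4, knockout livers with WT HMGB1 differed from WT livers in 5 members called higher and 1 lower, with 15.8% of all genes higher and 13.0% lower. Tnfsf10, the ligand TRAIL, measured 3.53, 2.80, 2.35 and 2.20 CPM in WT livers and 7.75, 4.86, 7.58 and 7.999 CPM in the knockout (1.37 ± 0.188, edgeR adjusted p = 3.17e-05). It was already at 7.67, 5.81 and 7.46 CPM with MO in the knockout, against 2.72, 3.01 and 2.26 CPM in WT livers. Tnfrsf21 (1.00 ± 0.197, edgeR adjusted p = 0.000812) and Cd40 (1.41 ± 0.378, 0.00857) were higher without overlap. Tnfrsf14, the receptor HVEM, was higher by 0.97 (edgeR adjusted p = 0.0295) and Tnfrsf1a by 0.32 (0.0192), at 108, 105, 111 and 109 CPM against 85.9, 91.9, 81.2 and 88.5 CPM. Tnfrsf14 lost its call in 4 of 14 fits, those without WT library 3 or 4 or knockout library 1 or 3 (adjusted p up to 0.0928). Cell markers moved too: 6 of 7 tested macrophage genes, 4 of 7 of T and NK cells, 4 of 5 of endothelium and 4 of 4 of proliferation were higher in the knockout. The stellate sum was 644 to 956 CPM in the knockout against 248 to 457 CPM in WT livers. The proliferation sum was 191 to 307 against 18.1 to 59.6 CPM and the macrophage sum 473 to 539 against 187 to 276 CPM. The T and NK sum was 8.15 to 9.07 against 4.06 to 4.80 CPM and the endothelial sum 158 to 201 against 92.7 to 114 CPM. Their part in the members' levels was not tested.

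Tnfrsf12a was lower in the knockout, at 21.3, 28.0, 18.03 and 16.5 CPM against 31.4, 61.8, 31.3 and 29.1 CPM (−0.87 ± 0.296, edgeR adjusted p = 0.033). It was lost in 7 of 14 fits, among them those without WT library 2 or without knockout library 1, 4 or 5 (adjusted p up to 0.166). With the replicate number as a block, Tnfrsf12a (edgeR adjusted p = 0.0982) and Tnfrsf1a (0.0504) were not called and Tnfrsf10b was (0.84, 0.0356).

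The CCl4 response itself differed between these mice for 4 members, 3 lower and 1 higher in the knockout with WT HMGB1, with 6.64% of all genes lower and 6.85% higher. Tnfrsf10b measured 2.12, 1.80 and 1.92 CPM with MO in the knockout, above all 3 WT MO libraries, and 4.10, 5.97, 4.87 and 4.94 CPM with CCl4. Its response was smaller by −2.12 ± 0.558 on the log2 scale (edgeR adjusted p = 0.0159; up to 0.069 without WT MO library 1 or 2). Tnfrsf23 measured 1.58, 1.59 and 4.02 CPM with MO and 4.28, 4.64, 6.61 and 6.19 CPM with CCl4, a difference of responses of −3.02 ± 0.718 (0.00912). Tnfrsf22 measured 1.43, 1.34 and 4.41 CPM with MO and 3.65, 2.50, 2.53 and 2.56 CPM with CCl4 (−3.13 ± 0.824, edgeR adjusted p = 0.016). For the 3 TRAIL receptors the MO level was higher in the knockout, and without MO library 3 the Tnfrsf22 difference was −2.32 (edgeR adjusted p = 0.0502). Without WT MO library 1 it was not called either. Leaving out that MO library 3 also brought calls of Tnfrsf14 (1.45, edgeR adjusted p = 0.0148), Tnfrsf21 (0.93, 0.027) and Traf5 (−0.81, 0.0358).

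Tnfrsf1b differed in the other direction (1.05 ± 0.236, edgeR adjusted p = 0.00612). It measured 68.5, 55.6 and 53.0 CPM with MO and 39.5, 40.2, 59.6 and 43.1 CPM with CCl4 in WT livers, where it was not called with all libraries but was lower without CCl4 library 3 (−0.53, edgeR adjusted p = 0.0115), and rose in the knockout as given above. The macrophage sum was 236 to 379 CPM with MO and 473 to 539 CPM with CCl4 in the knockout, against 343 to 380 and 187 to 276 CPM in WT livers, and the neutrophil sum with MO was 48.7 to 71.0 against 7.70 to 11.0 CPM. Their part in these responses was not tested.

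**Figure D5:**
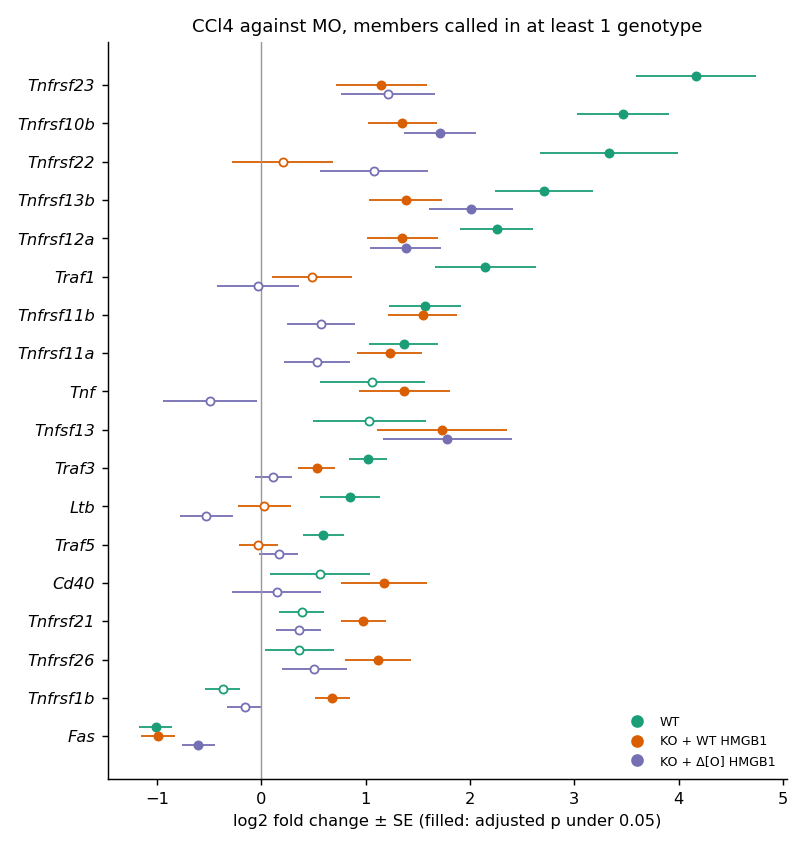
Log2 fold change of CCl4 over MO for the 18 members called in at least 1 of the 3 kinds of mice of the AAV8 experiment (MO n = 3, CCl4 n = 4; filled, adjusted p under 0.05). Bars are 1 standard error, taken as the absolute log2 fold change over the square root of edgeR's F statistic. Tnfrsf23, Tnfrsf10b and Tnfrsf22 reached 4.17, 3.47 and 3.34 in WT livers, Tnf was called in the knockout with WT HMGB1 at 1.37, and Fas was below 0 in all 3.

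Of the genes downstream of the receptors in WT livers, CCl4 raised 4 of 19 tested adaptors, kinases and death effectors (21.1%) and lowered 6 (31.6%), near the 22.8% and 23.5% of all genes, with the necroptosis effector Mlkl at 1.25, Ikbke at 1.20, the non-canonical NF-κB kinase Map3k14 at 1.18 and Map3k5 at −1.07. Of 14 ubiquitin enzymes and feedback inhibitors 3 rose and 5 fell, and Tnfaip3, the inhibitor A20, rose by 1.11. Eda2r (3.99) and Ngfr (2.00) rose among 6 tested family genes outside the naming rule. In the knockout with WT HMGB1, where 23.3% of all genes rose and 24.0% fell, the counts were 4 higher and 4 lower, 2 higher (Tnfaip3 by 1.55) and 3 lower, and 2 higher (Eda2r by 1.17 and Relt by 1.08). With Δ[O] HMGB1 none rose, and 3, 3 and 0 fell, against 12.9% and 11.4% of all genes. Between the knockouts under CCl4, Relt fell by 1.22, Tnfaip3 by 1.06 and Nfkbia by 0.56 with Δ[O] HMGB1.

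The 10 members not tested in the AAV8 table were Lta, Tnfrsf8, Tnfrsf17, Tnfrsf18, Tnfsf4, Tnfsf8, Tnfsf9, Tnfsf11, Tnfsf15 and Tnfsf18, none above 0.433 CPM in any library. Traf4 was not called in response to CCl4 in any of the 3 kinds of mice and ranged from 31.9 to 51.1 CPM over all 21 libraries. Lta, Tnf and Ltb neighbour each other on chromosome 17 (Ltb 35194507-35196305, Tnf 35199367-35202007, Lta 35203165-35205578 on mm10), and of these Ltb was called in WT livers, Tnf in the knockout with WT HMGB1, and Lta was not tested.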

How the data were processed

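RNA from total liver (RNAspin kit) and from HSC-T6 cells (miRNeasy kit) was made into TruSeq Stranded mRNA libraries, per the labels' protocols. The authors deposited raw counts per gene in 3 tables, and the submitters' processing notes name mm10 for all samples, the rat cells included. None of the sources used here gives the aligner, the counter, the gene annotation or the strand setting. Rows without a gene stayed out of library sizes. As a ratio to gene counts, reads outside genes stood at 32.0 to 35.2% for the cells and 5.5 to 8.51% for the AAV8 livers. On the same base, those marked ambiguous stood at 0.282 to 0.325% (cells) and 0.579 to 1.66% (AAV8 livers). Within the AAV8 livers the WT MO libraries stood apart, at 1.31, 1.42 and 1.66%, against 0.579 to 0.902% in all others. WT MO is the reference of the WT response to CCl4 and enters the difference of responses. The part of this gap in those results was not tested.

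Each table was fitted whole with edgeR 4.0.16 in R 4.3.3 (TMM scaling, filterByExpr with a minimum count of 10 and total of 15, robust quasi-likelihood fit over all groups of the table). P-values were adjusted over all genes tested, with a threshold of 0.05. Alternatives were DESeq2 1.42.0, RLE size factors, no filter on low counts, only the groups compared, a replicate block and leaving out each library. No pair of libraries agreed within sampling noise (chi-square per degree of freedom at least 1.46). On simulated data, 2-fold changes were recovered for 98.2% of changed genes for [H] against BSA in cells (10059 genes), 23.3% for [H] against BSA in fibrosis (13350 genes) and 72.0% for CCl4 against MO in WT livers (13980 genes), and 4-fold changes for 100%, 78.4% and 94.6%. The changed genes were drawn from those above a minimum mean CPM. Low members such as Tnf in the AAV8 livers lay below it, and these shares do not cover them.

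Same-numbered libraries shared deviations, with every pair's correlation over 0.1, among the 3 fibrosis groups (0.187 to 0.708) and between the CCl4 groups compared (0.108 to 0.313), though the labels do not say that numbers mark a batch; in the other comparisons they did not. The members and gene lists were chosen with earlier results of these data known, and the comparison of CCl4 responses between the WT HMGB1 knockout and WT livers was added after seeing the data. Named were all called members, up to 15 in each direction, and the ligand and receptor pairs and TRAFs. Promoters are from RefSeq, and exon lengths and overlaps from GENCODE M21.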

Additional observations from a re-analysis of the deposited data

Results flagged for a closer look

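Dixon's test at its 95% critical value was applied to 99 sets, each 1 tested member in 1 CCl4 group of 4 AAV8 libraries. In 6 of these sets 1 library lay far from the other 3. Chance gives about 1 in 20 independent sets, and these are not independent, as the members share libraries. In WT livers with CCl4, Tnfrsf12a was 61.8 CPM in replicate 2 against 29.1 to 31.4 CPM in the others, and Tnfrsf26 was 0.485 CPM in replicate 4 against 0.814 to 0.870 CPM. In knockout livers with WT HMGB1 and CCl4, Tnfsf10 was 4.86 CPM in replicate 3 against 7.58 to 7.999 CPM, and Tnfrsf22 was 3.65 CPM in replicate 1 against 2.50 to 2.56 CPM. In knockout livers with Δ[O] HMGB1 and CCl4, replicate 5 stood apart for both Fas (16.9 CPM against 13.5 to 13.7 CPM) and Tnfrsf1a (117 CPM against 96.1 to 99.7 CPM).

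The response to CCl4 differed between knockout livers with WT HMGB1 and WT livers, by the interaction term of the edgeR fit, for Tnfrsf10b (−2.12 on the log2 scale), Tnfrsf22 (−3.13), Tnfrsf23 (−3.02) and Tnfrsf1b (1.05). The levels behind these, and the libraries without which they were not called, are given with the comparison above.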

How the results depend on the processing

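No result reversed direction. Counts called moved over 1.5 times as follows. [H] against BSA in cells called 81 genes, but 140 with DESeq2, 168 with no filter, 39 with the replicate block and 454 with only the groups compared. DESeq2 called 3, 5 and 278 genes and, for [O] against [H], 1 member in the fibrosis comparisons of [H] with BSA, [O] with BSA and [O] with [H], and the block called 1 gene in the last. In resolution, [SO3] against BSA called 80 genes with DESeq2, 2 with the block and 49 with only the groups compared, and the antibody 7 with DESeq2. Resolution against fibrosis called 1214 genes, but 2334 with DESeq2, 776 with no filter and 91 with only the groups compared, and 6 members, but 11 with DESeq2 and 1 with only those groups. Δ[O] against WT HMGB1 under CCl4 called 326 genes, but 579 with DESeq2, 108 with only the groups compared and 1011 with the block among the CCl4 groups, and no member, but 2, 1 and 2 in the same order and 1 with the block. Their difference of responses called 85 genes with DESeq2 and 3 with the block. The cause was not tested. The block among the CCl4 groups was chosen after seeing the data. In the comparisons whose numbers pair the libraries, the block over the whole table changed no member call other than those given with the results above.

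Leaving out single libraries gave ranges of 13 to 195 genes for [H] against BSA in cells. In fibrosis they were 0 to 1 genes for [O] against BSA and 0 to 16 for [O] against [H], and in resolution 0 to 2 for [SO3]. Resolution against fibrosis ranged over 0 to 11 members and 0 to 2377 genes. The CCl4 response with Δ[O] HMGB1 ranged over 3 to 8 members and 2127 to 4039 genes, Δ[O] against WT HMGB1 under CCl4 over 0 to 2 and 61 to 492, their difference of responses over 0 to 3 and 0 to 1119, and the difference of responses between the WT HMGB1 knockout and WT livers over 2 to 6 and 1213 to 2480. Calls that held in every fit were 8 of 11 for [O] and 9 of 12 for [SO3] against BSA in cells, 10 of 12 for CCl4 in WT livers, 9 of 14 with WT HMGB1 and 3 of 5 with Δ[O] HMGB1. In cells they were also 8 of 11 for [O] against [H] and 12 of 13 for [SO3] against [O]. For resolution against fibrosis they were 0 of 6. Between the WT HMGB1 knockout and WT livers they were 3 of 6 under CCl4 and 2 of 4 for the difference of responses. How far depth limited calls of low members was not tested.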

Other observations

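The TRAIL ligand Tnfsf10 and the orphan receptor Tnfrsf19 were not called between stages. Tnfsf10 measured 4.19, 2.42 and 6.53 CPM in fibrosis with BSA and 9.45, 11.3 and 10.04 CPM in resolution with BSA, without overlap (log2 difference 1.22 ± 0.469, edgeR adjusted p = 0.0978). Its receptor Tnfrsf10b was lower in resolution, as given above. Tnfrsf19 measured 10.6, 1.41 and 8.56 CPM in fibrosis with BSA and 10.95, 11.5 and 9.91 CPM in resolution, and the number 2 library, high for many members, was here the lowest of its group (0.64, edgeR adjusted p = 0.554). Tnfsf13, the ligand of Tnfrsf13b, measured 2.86, 0.403 and 2.10 CPM and then 0.479, 0.621 and 0.753 CPM, with overlap (−1.57, edgeR adjusted p = 0.124).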
